A study of Mus musculus with 2 samples.

Results

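Genes of the contractile actin cytoskeleton and of the plaques that anchor it to the cell surface were compared between mouse fetal thymic stromal cells grown as a packed mass and the same kind of cells grown flat on a dish. The 57 members were chosen by name: the muscle actins and smooth muscle contractile genes (16), general actin and non-muscle actomyosin genes (17), adhesion plaque genes (15), and the transcription factor SRF with its cofactors and cytoskeletal signalling genes (9). Of these, 56 had a probe matched by name or accession, out of 19505 named genes on the array, and they were covered by 110 probes. Actg1, which encodes cytoplasmic γ-actin, was not analysed here.

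Actin filaments and myosin form the contractile bundles called stress fibres, which are prominent in cells that spread on a stiff surface. The bundles end in focal adhesions, where talin, vinculin and many LIM-domain proteins couple them to integrins. Monomeric actin binds the SRF cofactors Mkl1 and Mkl2 (now Mrtfa and Mrtfb) and keeps them from the nucleus. When actin polymerises, these cofactors are released and act with SRF at the CArG box, a sequence found in front of many genes for actin, its regulators and adhesion proteins. Smooth muscle cells and myofibroblasts express the contractile genes strongly, and in the thymus such cells lie in the capsule, the septa and the vessel walls.

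Fetal thymus lobes of C57BL/6 mice at embryonic day E14.5 or E15.5 were kept in organ culture with 1.35 mM deoxyguanosine, which depletes haematopoietic cells, for 8 days (E14.5) or 9 days (E15.5). The dispersed cells were then grown for 72 h either on a membrane as a reaggregation thymus organ culture (RTOC) or in a 35-mm dish as 2D culture. All 4 RNAs therefore came from deoxyguanosine-treated, enzyme-dispersed stroma, and no sorting for a cell type was named. Each of 2 two-colour arrays, 1 per stage, carried 2D culture in Cy3 and RTOC in Cy5. The dyes were not swapped, both arrays lay on 1 slide, and the effects of stage, of the days spent in organ culture and of the array itself cannot be told apart.

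The upstream part of a promoter, the 250 bases before an annotated start, could be read for 47 of the 57 members from RefSeq (GRCm38.p6). A CArG box, taken as CC followed by 6 bases that are each A or T and then GG, was found in 12 of these 47 genes (25.5%). It was found in 1.62% of the 27025 genes with a promoter and in 1.45% of the 10751 such genes that were tested on the array. Counted by promoter, since 13 members have several, it was in 13 of 62 member promoters (21.0%) and in 1.47% of 32851 promoters. The members include SRF and genes known as its targets, so these shares describe the list and are no test. The search reads both strands at once because the motif is its own reverse complement. The following windows lie at or next to the outer end of the annotated gene and belong to 4 genes that were lower in RTOC, Acta1, Actc1, Cnn2 and Vcl. They are written 5′ to 3′ on the gene's strand with the CArG box in capitals.
Acta1 (chr8:123894776-123895025, minus strand): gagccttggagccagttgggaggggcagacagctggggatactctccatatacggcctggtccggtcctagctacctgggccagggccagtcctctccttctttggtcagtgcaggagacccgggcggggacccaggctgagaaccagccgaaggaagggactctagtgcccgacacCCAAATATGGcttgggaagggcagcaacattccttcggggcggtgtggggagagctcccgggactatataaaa
Actc1 (chr2:114052876-114053125, minus strand): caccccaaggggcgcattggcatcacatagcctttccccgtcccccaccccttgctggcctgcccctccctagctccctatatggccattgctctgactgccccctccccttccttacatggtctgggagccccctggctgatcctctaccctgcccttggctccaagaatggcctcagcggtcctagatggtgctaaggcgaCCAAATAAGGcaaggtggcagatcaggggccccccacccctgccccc
Cnn2 (chr10:79988350-79988599, plus strand): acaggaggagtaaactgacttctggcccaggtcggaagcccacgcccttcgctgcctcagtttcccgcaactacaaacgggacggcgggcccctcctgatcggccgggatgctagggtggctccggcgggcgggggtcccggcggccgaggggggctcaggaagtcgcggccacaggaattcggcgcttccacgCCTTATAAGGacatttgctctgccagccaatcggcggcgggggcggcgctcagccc
Vcl (chr14:20929148-20929397, plus strand): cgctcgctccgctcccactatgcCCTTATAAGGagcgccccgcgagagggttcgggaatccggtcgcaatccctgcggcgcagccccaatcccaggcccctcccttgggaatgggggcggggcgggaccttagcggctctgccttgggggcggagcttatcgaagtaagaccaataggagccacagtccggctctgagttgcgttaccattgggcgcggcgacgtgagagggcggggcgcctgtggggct

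In 8 of the 13 member windows with a box, over 30 bases lay within the annotated span of the same gene, before one of its inner starts, and for these only 30 bases around the box are shown. Fhl2, Fhl1 and Myl9 were lower in RTOC, while Fermt2, Srf, Myl6 and Lima1, with boxes of the same kind, were not called.
Fhl2 (chr1:43163973-43164002, minus strand): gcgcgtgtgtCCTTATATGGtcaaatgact
Fhl2 (chr1:43196838-43196867, minus strand): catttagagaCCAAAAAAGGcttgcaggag
Fhl1 (chrX:56779571-56779600, plus strand): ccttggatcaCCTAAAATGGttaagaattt
Myl9 (chr2:156775293-156775322, plus strand): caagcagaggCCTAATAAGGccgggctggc
Fermt2 (chr14:45530250-45530279, minus strand): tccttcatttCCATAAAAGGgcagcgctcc
Srf (chr17:46556215-46556244, minus strand): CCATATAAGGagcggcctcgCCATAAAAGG
Myl6 (chr10:128493040-128493069, minus strand): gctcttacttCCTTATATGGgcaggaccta
Lima1 (chr15:99820177-99820206, minus strand): ctcactttgtCCTTATAAGGctatcctgtt

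The box began 73 bases before the start of Acta1, 47 before Actc1, 56 before Cnn2 and 227 before Vcl, 161 before Myl9, and 31 and 96 bases before the 2 starts of Fhl2. Srf, which encodes the factor itself, had a pair of boxes, at 82 and 62 bases. Actg1 had a box as well. Of the 11 such genes that were tested, 7 were lower in RTOC and their median log2 ratio (RTOC over 2D culture) was -3.08, with a range from -4.86 to -0.20. Of the 34 tested members with a promoter but no such box, 26 were lower and the median was -1.81. Low ratios were thus found with and without a box, and these letters alone say nothing about binding of the factor. The MCAT motif, CATTCC or GGAATG on the other strand, was in 16 of the 47 members (34.0%) and in 14.4% of all genes with a promoter. Counted by promoter, it was in 16 of 62 member promoters (25.8%) and in 12.6% of all promoters. In the smooth muscle class it was in 7 of 13 genes, namely Acta1, Acta2, Tpm1, Cald1, Lmod1, Smtn and Mylk. The windows of Acta1 and Vcl held both motifs, which did not overlap there.

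**Figure D1:**
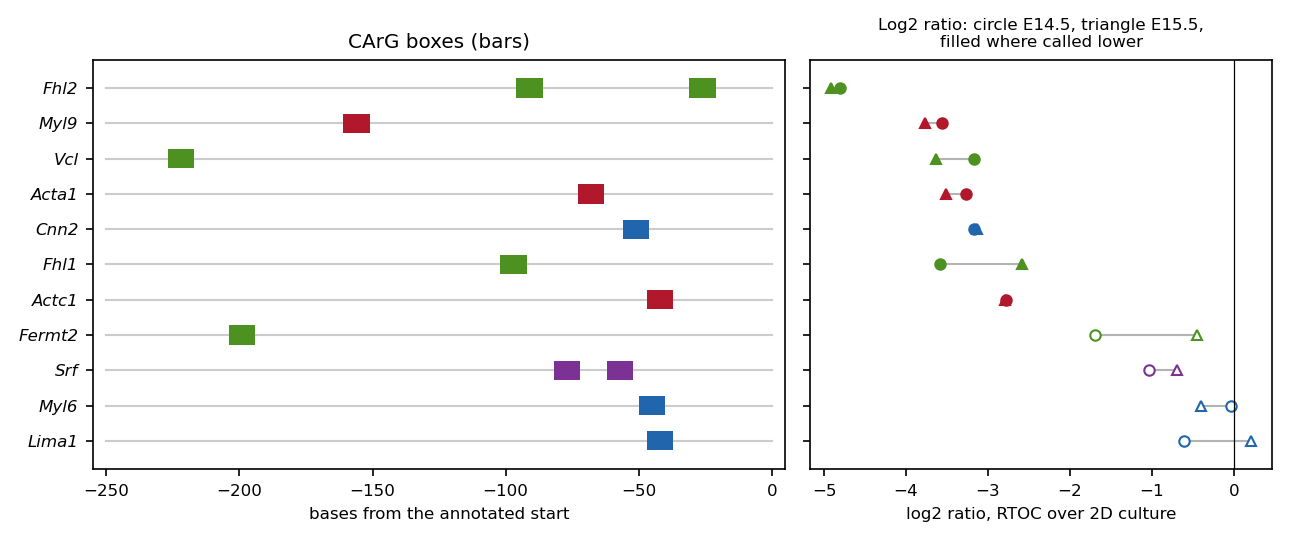
CArG boxes in the 250 bases before the annotated starts of 11 tested members (left, bars 10 bases long, x axis in bases from the start, with both promoters of Fhl2 on 1 line) and the log2 ratio (RTOC over 2D culture) for the same genes at each stage (right). The filled genes at the top, Fhl2 to Actc1, were lower in RTOC, and Fermt2, Srf, Myl6 and Lima1 at the bottom were not called.

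In RTOC most members were lower than in the flat culture, and none was called higher. Values are log2 ratios, RTOC over 2D culture. This ratio was measured for each probe on each array from normalised signals, and a gene was represented by its brightest tested probe. Of the 54 members with a probe well above background, 38 were lower in RTOC in the fit across all probes (limma, Benjamini-Hochberg adjusted p under 0.05), 16 were not called and 0 were higher. Among all 13503 tested genes, 12.7% were called lower and 15.4% higher. The median log2 ratio of the members was -1.70, against 0.00 for all tested genes. On both arrays, 50 of the 54 members lay below 0 and the other 4 had opposite signs at the 2 stages, while 39.5% of all tested genes lay below 0 on both arrays. At least 2-fold lower on both arrays were 35 members, beside 9.06% of all tested genes, and at least 4-fold lower were 21 members, beside 2.9%. No member was 2-fold or 4-fold higher on both arrays, beside 11.5% and 4.35% of all tested genes. In these bulk samples, fewer cells of a type and less RNA per cell cannot be told apart.

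The adjusted p-values rest on a spread shared over all probes, because 2 arrays leave 1 residual degree of freedom, and an exact sign-flip permutation test of 1 gene over 2 arrays cannot go below p = 0.5. The fit with no filter on dim probes, and a per-probe test without the shared spread after Benjamini-Hochberg adjustment, called 0 members. Before adjustment the latter had 24 members lower and the limma fit 44. Over all probes 3210 were lower and 3608 higher, so that 47.1% of the calls were lower, and with normexp background correction and median centring these numbers were 685, 2219 and 23.6%, with 24 members lower.

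**Figure D2:**
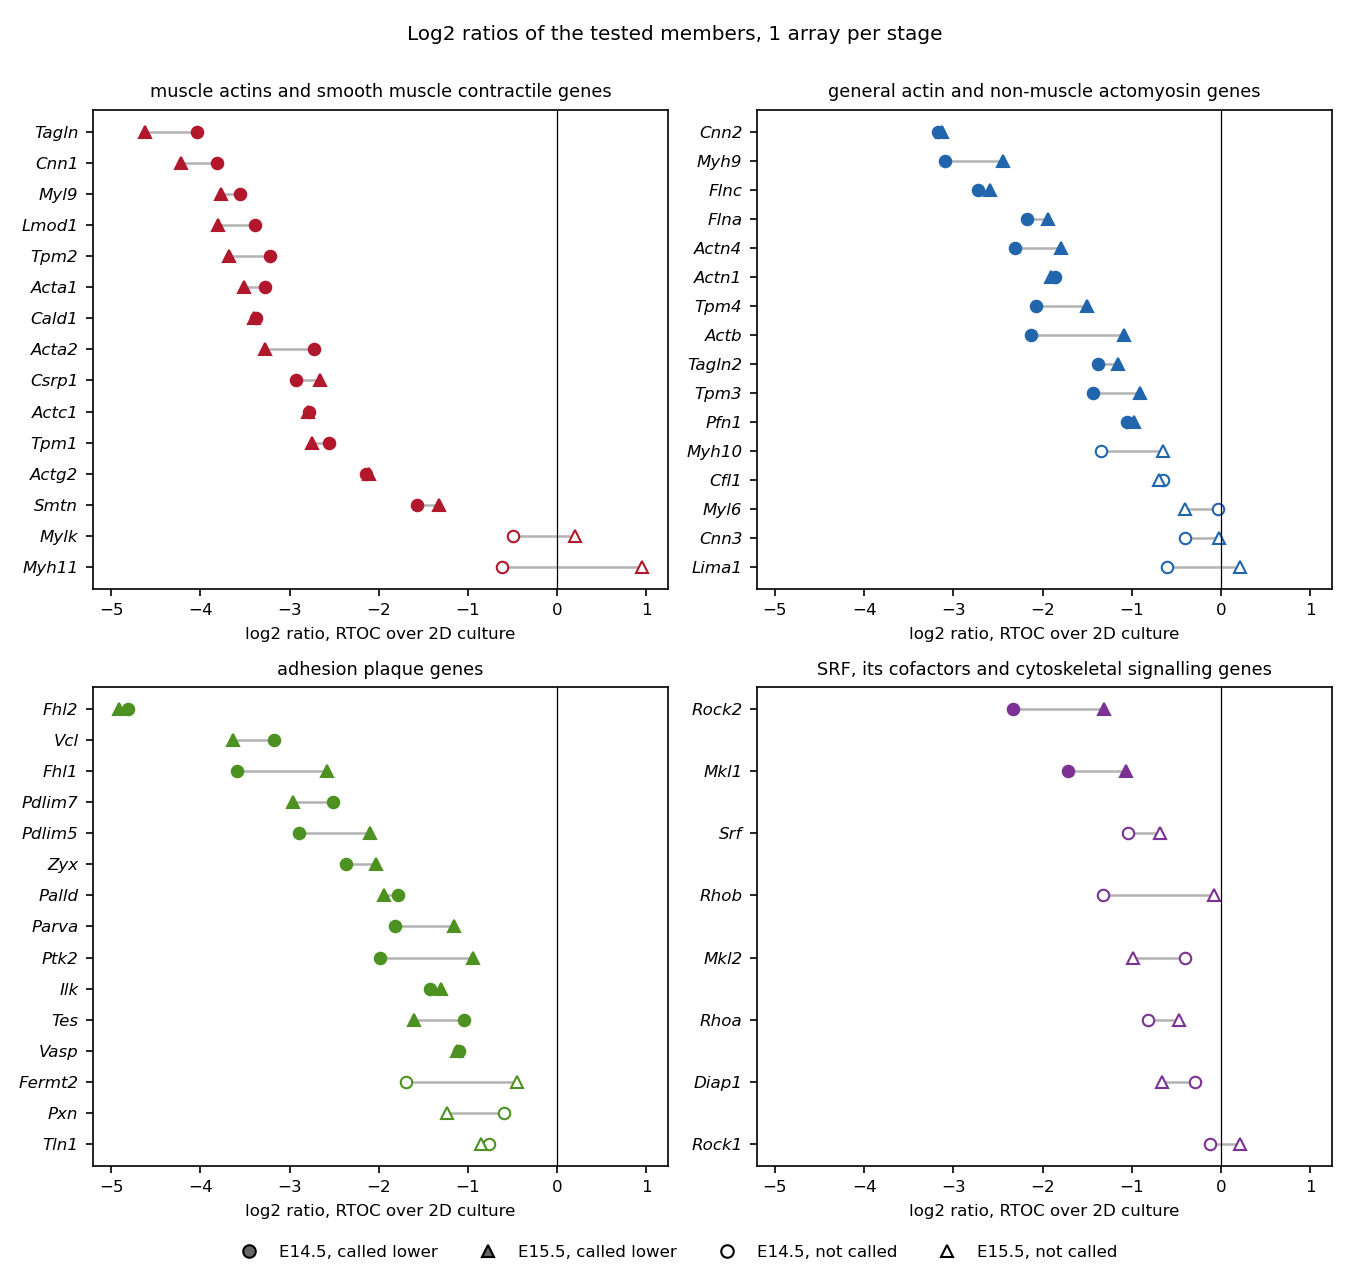
Log2 ratio, RTOC over 2D culture (x axis), for the 54 tested members in 4 classes, with circles for the E14.5 array, triangles for the E15.5 array, filled symbols for genes called lower and open symbols for genes not called. Nearly all symbols lie left of 0, with 13 of 15 smooth muscle genes filled and 2 of 8 genes of the class of SRF and signalling genes filled.

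The muscle actins and smooth muscle contractile genes had the lowest median of the classes. Of 15 tested, 13 were lower, with a median log2 ratio of -3.00 (range -4.33 to 0.17), and 12 were at least 4-fold lower on both arrays. Tagln, which encodes the actin-binding protein transgelin (chromosome 9, 45929628 to 45936058), had log2 signals of 18.00 at E14.5 and 17.77 at E15.5 in 2D culture and of 13.96 and 13.14 in RTOC. Both 2D signals were above both RTOC signals, and the log2 ratio was -4.33 ± 0.41 (SD, n = 2 arrays), 20.2-fold lower (adjusted p = 0.0016). Its other probe gave -3.39. Cnn1, the gene of smooth muscle calponin (chromosome 9, 22099221 to 22109221), fell from 14.29 and 13.58 in 2D culture to 10.47 and 9.36 in RTOC, a log2 ratio of -4.02 ± 0.29 (n = 2, adjusted p = 0.0016).

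The genes of myosin light chain and thin-filament proteins were lower as well. Myl9, the regulatory light chain of myosin II, had signals of 16.15 and 15.42 in 2D culture and of 12.59 and 11.65 in RTOC, a log2 ratio of -3.66 ± 0.15 (n = 2, adjusted p = 0.00167). Lmod1, a leiomodin that nucleates actin filaments, had 13.44 and 12.54 against 10.04 and 8.73, a log2 ratio of -3.60 ± 0.29. The groups did not overlap for either gene. The tropomyosins Tpm2 and Tpm1, which run along the filament, had log2 ratios of -3.45 ± 0.33 and -2.65 ± 0.13, and their further probes lay between -3.54 and -3.05. Caldesmon, which binds tropomyosin and restrains myosin, is encoded by Cald1, and both its probes were near -3.38. Csrp1, a LIM protein of the actin cytoskeleton, had -2.79 ± 0.19, and Smtn, which encodes smoothelin, had the smallest called difference of the class, -1.45 ± 0.17 (adjusted p = 0.0135).

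All 4 muscle actins were lower. Acta2, smooth muscle α-actin (chromosome 19, 34240336 to 34255585), had signals of 18.08 and 17.95 in 2D culture and of 15.36 and 14.67 in RTOC on its brightest probe, a log2 ratio of -3.00 ± 0.40 (n = 2, adjusted p = 0.00248). That probe was printed at 10 spots per array. Before quantile normalisation the spots ran from -3.39 to -3.29 at E14.5 and from -3.37 to -3.19 at E15.5, with an SD between spots of 0.04 and 0.06, so that the quantile step moved the E14.5 ratio to -2.72. The other tested Acta2 probes differed more than the spots did. One gave -2.29, another gave -6.93 (14.39 and 13.42 in 2D culture, 7.97 and 5.98 in RTOC), and the third was not well above background in RTOC on either array and was at least 1.82-fold lower (adjusted p = 0.0017). Acta1 (skeletal muscle actin), Actc1 (cardiac actin) and Actg2 (enteric smooth muscle actin) had log2 ratios of -3.39 ± 0.17, -2.78 ± 0.01 and -2.13 ± 0.02. The coding sequences of actins are much alike, and how far these probes also bound RNA of other actins was not tested.

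The tested members of this class that were not called were Myh11 and Mylk. Myh11, the heavy chain of smooth muscle myosin (chromosome 16, 14194527 to 14292188), had signals of 11.22 at E14.5 and 9.60 at E15.5 in 2D culture and of 10.61 and 10.56 in RTOC. The cultures overlapped, the log2 ratio was -0.62 at E14.5 and 0.95 at E15.5, and the mean of 0.17 ± 1.11 was not called (adjusted p = 0.782). Mylk, the kinase of the myosin light chain, had 10.95 and 11.04 in 2D culture and 10.45 and 11.23 in RTOC, a log2 ratio of -0.15 ± 0.49 (adjusted p = 0.724), and its other tested probe gave -0.19. Des, which encodes the intermediate filament protein desmin, was not well above background in any channel at its 10 spots, and neither was Myocd, the gene of the SRF cofactor myocardin, on its 2 probes.

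**Figure D3:**
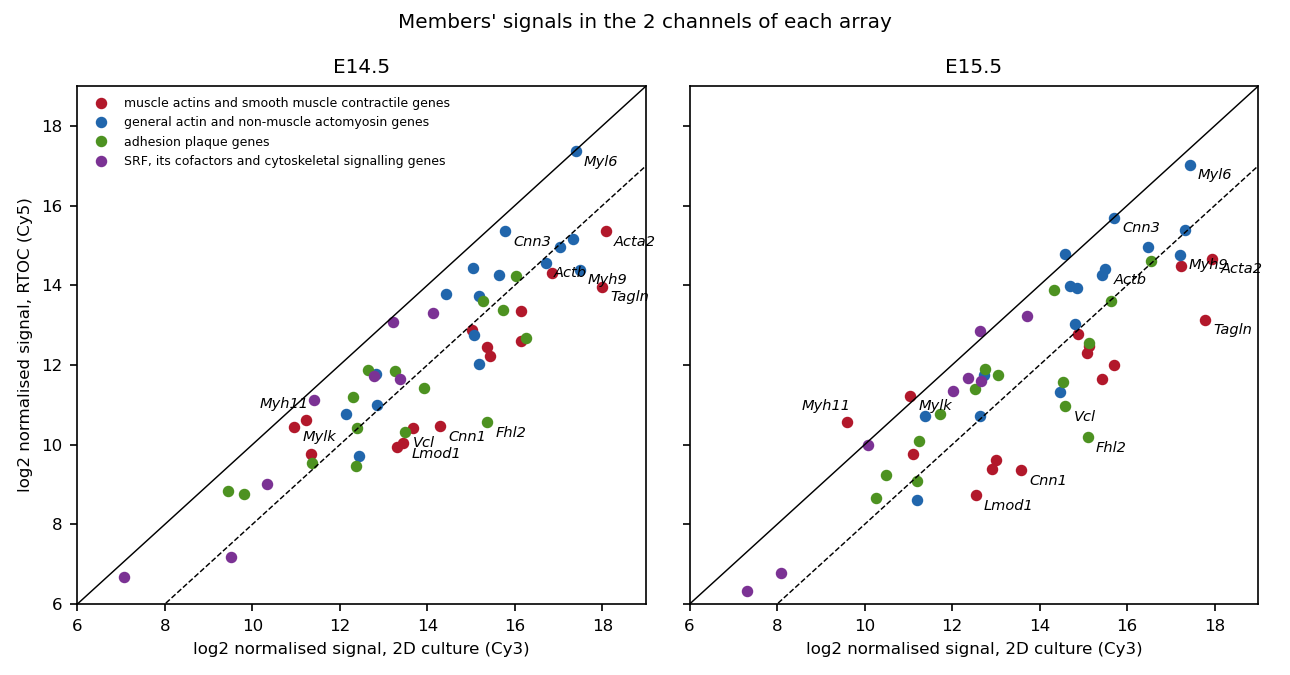
Log2 normalised signal in RTOC (Cy5, y axis) against 2D culture (Cy3, x axis) of the tested members on the E14.5 array (left) and the E15.5 array (right), coloured by class. The solid line marks equal signals and the dashed line a 4-fold lower signal in RTOC, and Tagln, Cnn1 and Fhl2 lie below the dashed line at both stages while Mylk, Myl6 and Cnn3 lie near the solid one.

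The general actin and non-muscle actomyosin genes were lower in 11 of 16 cases, with a median log2 ratio of -1.44 (range -3.15 to -0.20), and 3 were at least 4-fold lower on both arrays. Cnn2, the calponin of non-muscle cells, had signals of 15.19 and 14.47 in 2D culture and of 12.02 and 11.33 in RTOC, a log2 ratio of -3.15 ± 0.02 (n = 2, adjusted p = 0.00197). Myh9, the heavy chain of non-muscle myosin IIA, had 17.48 and 17.21 against 14.39 and 14.77, a log2 ratio of -2.77 ± 0.45 (adjusted p = 0.0031). Neither gene had overlapping signals. Among the crosslinkers, the filamins Flnc and Flna had -2.66 ± 0.10 and -2.06 ± 0.16, and the α-actinins Actn4 and Actn1 had -2.05 ± 0.37 and -1.89 ± 0.03. Tpm4 and Tpm3, tropomyosins of non-muscle cells, were lower with -1.79 ± 0.41 and -1.18 ± 0.38.

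Actb, β-actin, is often used as a reference gene for normalising between samples, and it was lower here. Its brightest probe, at 1 spot per array, had a signal of 16.71 in 2D culture and of 14.57 in RTOC at E14.5, and at E15.5 the RTOC signal of 14.41 again lay below that of 2D culture. The log2 ratio was -2.13 at E14.5 and -1.09 at E15.5, a mean of -1.61 ± 0.74 (adjusted p = 0.0212), and its other probe, at 10 spots per array, gave -1.79. The call was lost with the 4 channels taken as separate samples (adjusted p = 0.0633) and with normexp and median centring (-1.16, adjusted p = 0.0887). Pfn1, profilin, which loads actin monomers for polymerisation, had -1.02 ± 0.06 (adjusted p = 0.0341).

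In this class the members nearest 0 were Lima1, an actin-bundling LIM protein, with -0.20 ± 0.58, Cnn3, acidic calponin, with -0.22 ± 0.27, and Myl6, the essential light chain of myosin II, with -0.22 ± 0.26. Myl6 had 17.39 and 17.43 in 2D culture and 17.36 and 17.03 in RTOC, so that the light chain Myl6 was not called while the light chain Myl9 was 12.7-fold lower. The second Myl6 probe had -0.60 (-0.34 at E14.5 and -0.86 at E15.5) and was not called either. On its brightest probe the ratio of Myl6 turned to 0.17 with normexp and loess and to 0.63 with normexp and median centring. Those of Cnn3 and Lima1 turned to 0.28 and 0.07 with median centring. Lima1 was the only member of this class with probes of opposite sign, the second probe being at 0.06. Cfl1, cofilin, and Myh10, non-muscle myosin IIB, were not called on the brightest probe (adjusted p = 0.0969 and 0.0528) and were lower on another (log2 ratios of -1.38 and -1.62).

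All 15 adhesion plaque genes were below 0 at both stages, and 12 of them were called lower, with a median log2 ratio of -1.49 (range -4.86 to -0.80). Fhl2, a LIM-only protein that binds integrin tails and SRF (chromosome 1, 43123071 to 43198343), had signals of 15.36 and 15.10 in 2D culture and of 10.56 and 10.18 in RTOC. Its log2 ratio of -4.86 ± 0.08 (n = 2, adjusted p = 0.0016), 29.0-fold lower, was the lowest among the members by their brightest probes. Vinculin, encoded by Vcl (chromosome 14, 20929383 to 21033676), links talin to actin, and its signals were 13.48 and 14.59 in 2D culture and 10.31 and 10.96 in RTOC. Its log2 ratio was -3.40 ± 0.33 (adjusted p = 0.00195), with -3.23 on its second probe.

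Several further LIM proteins of the plaque were among the lowest. Fhl1 had 16.26 and 15.12 in 2D culture and 12.68 and 12.55 in RTOC, a log2 ratio of -3.08 ± 0.72 (adjusted p = 0.00344). Pdlim7 and Pdlim5, PDZ and LIM proteins of stress fibres, had -2.73 ± 0.32 and -2.49 ± 0.56, with all 4 and all 5 of their probes called lower. The dimmest Pdlim5 probe was not well above background in RTOC on either array and was at least 1.30-fold lower. Zyx, zyxin, which gathers at strained filaments, had -2.20 ± 0.24, and Palld, palladin, which crosslinks actin, had -1.86 ± 0.11 with 1 of its 3 probes not called (-0.58). The parvin Parva, the kinases Ptk2 (focal adhesion kinase) and Ilk, the LIM protein Tes and the filament-elongating Vasp were lower with ratios from -1.49 to -1.11.

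The integrin activators and the scaffold paxillin were nearest 0 in the plaque class. Tln1, talin, had signals of 12.64 and 12.76 in 2D culture and of 11.88 and 11.90 in RTOC on its brightest probe, a log2 ratio of -0.80 ± 0.07 that was not called (adjusted p = 0.0635). Its other 2 probes gave -1.50 and -2.40 and were called lower. Pxn, paxillin, had -0.92 ± 0.45 (adjusted p = 0.0625) with -1.14 on a probe that was called lower, and Fermt2, kindlin-2, had -1.07 ± 0.87 (adjusted p = 0.078) with -1.10 on its second probe, which was not called either.

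**Figure D4:**
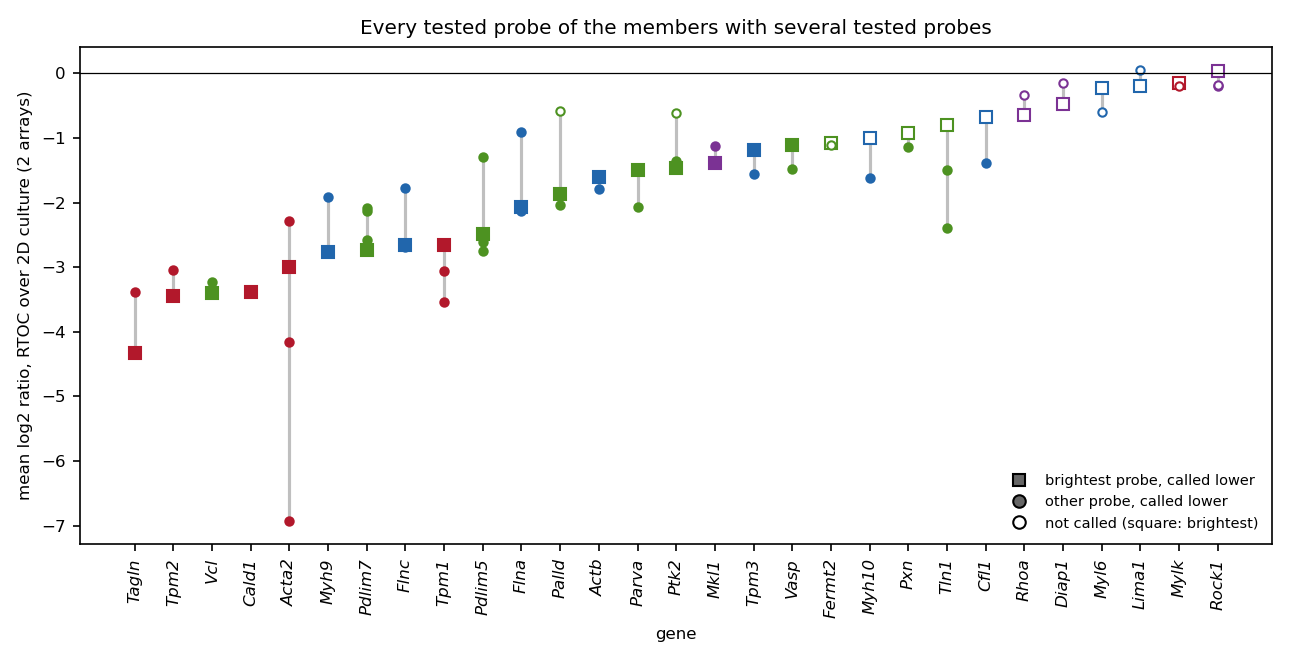
Mean log2 ratio, RTOC over 2D culture (y axis, n = 2 arrays), for every tested probe of the 29 members with several tested probes, squares for the brightest probe and circles for the others, filled where called lower. All probes of 27 genes lie below 0, and the probes of Acta2 are the farthest apart, from -6.93 to -2.29.

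Other probes of the same genes were tested too. Of 97 tested member probes, 71 were lower and 0 higher, beside 13.6% and 15.2% of all tested probes. In 29 genes with several tested probes, 27 had all of them below 0 and 2, Lima1 and Rock1, had probes of opposite sign. The call differed between probes in 6 genes, Cfl1, Myh10, Tln1, Pxn, Palld and Ptk2, and 42 members had at least 1 probe called lower. No member probe was saturated.

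In the class of SRF, its cofactors and cytoskeletal signalling genes, 2 of 8 tested members were lower, a share of few genes beside the 12.7% of all genes, and the median log2 ratio was -0.69 (range -1.82 to 0.04). Rock2, a kinase that raises myosin activity, had signals of 9.51 and 8.08 in 2D culture and of 7.17 and 6.77 in RTOC, a log2 ratio of -1.82 ± 0.72 (adjusted p = 0.015) that became -0.64 with normexp and loess (adjusted p = 0.104). Its relative Rock1 had 13.22 and 12.63 against 13.09 and 12.85, a log2 ratio of 0.04 ± 0.24, which had opposite signs at the 2 stages and was not called. Mkl1, the actin-regulated cofactor of SRF, had 13.38 and 12.66 in 2D culture and 11.66 and 11.59 in RTOC, a log2 ratio of -1.39 ± 0.46 (adjusted p = 0.0207), and its second probe at -1.12 was lower too. Its relative Mkl2 had -0.69 ± 0.41 and was not called. With normexp and median centring, Rock2 (-0.56, adjusted p = 0.17) and Mkl1 (-1.13, adjusted p = 0.0859) were not called either.

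Srf itself (chromosome 17, 46546838 to 46558267) had signals of 12.77 and 12.36 in 2D culture and of 11.72 and 11.67 in RTOC. The cultures did not overlap, and the log2 ratio of -0.87 ± 0.25 missed the threshold (adjusted p = 0.0577). Of 10 alternatives, all with the same direction, Srf passed the threshold in 3 and missed it in 7. The small GTPases Rhoa and Rhob had -0.64 ± 0.24 and -0.70 ± 0.88, and Diap1 (Diaph1), a formin, had -0.47 ± 0.26, all not called. The differences between the 2 kinases, or between the 2 cofactors, were not tested.

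The order of the stages differed between classes as counts. In the smooth muscle class the ratio was lower at E15.5 than at E14.5 in 10 of 15 genes, and in the general actin class it was lower at E14.5 in 13 of 16, with class medians of -2.93 and -3.28 (E14.5, E15.5) in the smooth muscle class and of -1.65 and -1.12 in the general actin class. With 1 array per stage this was not tested. The medians of all tested genes were -0.01 and 0.02. The order can depend on the quantile step: before it the spots of Acta2 had medians of -3.32 at E14.5 and -3.28 at E15.5, and after it the ratios were -2.72 and -3.28. The SD over the 2 arrays had a median of 0.28 over the tested members, and it was largest for Myh11 (1.11).

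Other genes of the same pathways, from lists that hold none of the members, are described by their counts. The first list held genes of the Arp2/3 complex, which builds branched networks, with filament-capping and other actin-binding genes. Of these, 1 of 14 was lower (Arpc4, log2 ratio -1.01) and 0 higher, with a median of -0.53. Of the monomer-binding and severing genes 4 of 10 were lower, among them Dstn (-1.51), Tmsb10 (-1.47) and Wdr1 (-1.34). Of the nucleators and elongators 3 of 11 were lower, including the cortactin gene Cttn (-1.81) and Diap3 (-1.34), and 1 was higher, Evl (1.55).

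Among the further adhesion plaque adaptors 9 of 22 were lower and 1 higher, with a median log2 ratio of -0.89. Nexn, which encodes the filament-binding nexilin, had -3.91 at E14.5 and -4.34 at E15.5, and Lims2 had -2.86 and -2.99. The list also held Vasn (-2.34), which encodes vasorin, a cell-surface protein that binds TGF-β. Of further signalling and myosin regulation genes 8 of 19 were lower and 0 higher, led by the myosin heavy chain Myh14 (-2.73), the regulatory light chain Myl12a (-2.64) and the small GTPase Rnd3 (-2.22). The further smooth muscle genes were split, with 3 of 9 tested lower and 3 higher: Cspg4 had -2.67, while Aoc3, an amine oxidase, had 2.79 and Pgm5, an adhesion protein of muscle, had 2.35.

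**Figure D5:**
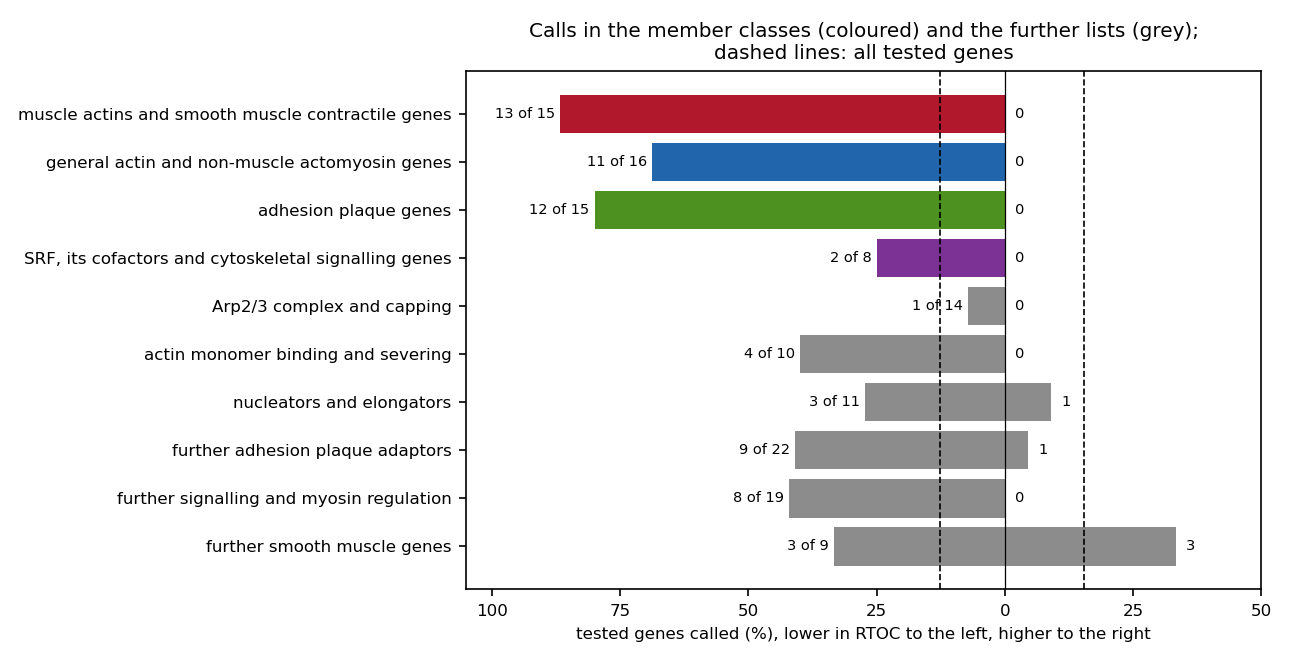
Share of tested genes called lower in RTOC (left of 0) and higher (right of 0) in the 4 member classes (coloured) and the 6 further lists (grey), with the counts printed, and dashed lines at the shares among all 13503 tested genes (12.7% and 15.4%). The smooth muscle class reaches 13 of 15 lower, and the further smooth muscle genes have 3 lower and 3 higher of 9.

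Markers of cell types moved in both directions beside these results, and their part in them was not tested. Sums of normalised signals are given as E14.5, then E15.5, for 2D culture against RTOC. The brightest genes weigh most in such a sum. Of 14 fibroblast markers 5 were lower and 4 higher, with sums of 485202 and 368766 in 2D culture and of 309773 and 318872 in RTOC. The brightest of them in 2D culture, Col1a1 (-2.16) and Col1a2 (-1.22), were among the 5 lower ones. The 4 higher ones were Lum (4.55), Pdgfra (2.84), Fap (2.39) and Dcn (1.94). Of 7 pericyte markers Mcam (-2.60), Pdgfrb (-1.22) and Cspg4 were lower and Rgs5 (3.25), Kcnj8 (3.51) and Abcc9 (1.76) higher. The sums of all 7 were 85795 and 103215 against 63790 and 63296. Of 11 thymic epithelial markers 2 were lower and 6 higher, with sums of 312007 and 640235 against 986731 and 985801. The 2 lower ones were Krt14 (-1.86) and Cdh1 (-1.28), and Foxn1, a transcription factor of these cells, was among the 6 higher ones with 2.65. Higher in RTOC were 7 of 8 endothelial markers (sums 1643 and 800 against 8336 and 12909). The 2D signal of Pecam1, Cdh5, Tek and Tie1 was not well above background. Also higher were 5 of 8 macrophage markers (sums 73632 and 63205 against 175520 and 227608). Of 8 thymocyte markers 4 were tested and 1 was higher. The sums of all 8 were 686 and 1051 against 1343 and 937, so that they rose at E14.5 and fell at E15.5. Of 11 striated muscle markers 6 were not well above background in any channel (Ckm, Myh3, Tnnt3, Actn2, Nppa and Myh6). Of 4 tested Tnnt2 was lower (-2.25) and Myl1 higher and at least 1.61-fold. The sums of all 11 were 1996 and 731 against 952 and 1114.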

How the data were processed

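Whole-genome mouse arrays were labelled, hybridised and scanned by the authors. The deposited scanner files hold per-spot mean, background and processed signals as intensity, and the log10 ratio (Cy5 over Cy3) and its error-model p-value, per the file headers. The deposited series values are the log10 ratio of the same spots (largest difference 5e-10). The submitters' processing notes name Agilent Feature Extraction 11.5.1.1, while the file headers name another version, and the methods state quantile normalization in GeneSpring. The log10 ratio and the deposited p-value were not tested here.

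Control spots and non-uniform spots (5 and 1) were left out, log2 processed signals of the 4 channels were quantile normalized, and spots of a probe were averaged. Of 41174 probes, 23681 with at least 1 channel well above background on each array were tested against 0 with limma 3.58.1 in R 4.3.3 (lmFit, eBayes, two-sided, Benjamini-Hochberg over all tested probes, threshold 0.05). The 2 arrays hold cultures of different stages, and repeat cultures of 1 kind are not named. The p-values therefore rest on a spread between these 2 samples, shared over all probes. That spread also holds stage, days in organ culture and technical differences. Well above background were 53.1% (2D) and 56.3% (RTOC) of probes at E14.5, and 53.5% and 60.9% at E15.5; the number of arrays limits the precision. Probes were named by RefSeq accession (22951), symbol (6659) or older symbol (3109); 8455 kept their file name. A probe dim in 1 culture is given as at least N-fold, from channels after loess and Aquantile and open to dye bias without swaps.

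Members, lists and tests were chosen with earlier results of these data known. Named were all smooth muscle members, elsewhere the 5 largest called differences, the 3 nearest 0 and genes with probes of opposite sign, and up to 3 called genes per list; other names were chosen after the values were seen, and 1 gene of a list is not reported here. The steps were tested on simulated data. Alternatives were normexp (offset 50) with loess or median centring, no quantile step, no dim filter, both channels required and outlier spots kept. Others were the per-probe t-test, no replicate block, trended and robust eBayes, the median over probes, and each array left out.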

Additional observations from a re-analysis of the deposited data

Results flagged for a closer look

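The members Myh11, Mylk, Lima1 and Rock1 had ratios of opposite sign at the 2 stages, each from 1 array, and the difference between stages was not tested. For RTOC over 2D culture, Myh11 had log2 ratios of -0.62 at E14.5 and 0.95 at E15.5. Mylk had -0.50 and 0.20, Lima1 had -0.61 and 0.21, and Rock1 had -0.13 and 0.21. Opposite signs were found in 20.3% of all tested genes.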

How the results depend on the processing

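With 2 arrays per comparison the precision is set by their number and, for dim probes, by signal over background. The 38 members were all still called with no quantile step, with both channels required, with outlier spots kept, with eBayes trend and robust fitting and with the median over probes, and 35 with normexp and loess and 35 with no replicate block, that is with the 4 channels as separate samples. With normexp and median centring 24 were called. With no dim filter and with the per-probe t-test 0 were called, where 40 and 24 had an unadjusted p under 0.05. In both of these, 0 probes and 0 genes of the further lists were called in either direction (10666 and 3538 probes unadjusted). Lower and higher probes numbered 1701 and 2008 with normexp and loess, 685 and 2219 with median centring, 1812 and 2218 with no replicate block, and 1949 genes were lower by the median over probes. Genes of the further lists called lower numbered 14 with median centring and 17 with no replicate block, and 8 were called higher with trend and robust fitting. Median centring left the median of all probes at 0.12, and with it the class medians were -2.50 (smooth muscle), -1.05 (general actin), -1.10 (plaque) and -0.35 (SRF and signalling). With normexp and loess the plaque and SRF medians were -1.27 and -0.51, with no quantile step the smooth muscle median was -3.31, and by the median over probes the plaque median was -1.78. With 1 array alone the medians ran from -3.28 to -2.93 (smooth muscle), from -1.82 to -1.60 (plaque) and from -0.93 to -0.68 (SRF and signalling), as values with no test. Ratios that changed sign were those of uncalled members: Myl6 (0.17 with loess, 0.63 with median centring), Rock1 (-0.04 with loess, -0.17 by the median over probes), and, with median centring, Cnn3 (0.28), Lima1 (0.07) and Mylk (0.08). The cause was not tested.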
